A study of Rattus norvegicus with 48 samples.

Results

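The effect of inhaled oil vapor on the rat lung that is common to a single and a repeated exposure was examined 28 days after the last exposure. All animals of that time were taken, 24 of the 48 libraries of the series, 12 from oil vapor rats and 12 from air rats, with the schedule as a block. The 4 groups of 6 were rats given oil vapor at 300 ppm for 6 h per day on 4 days per week for 4 weeks (repeated oil), air on the repeated schedule (repeated air), oil vapor at 300 ppm for 6 h on 1 day (single oil), and air on the single schedule (single air). All were male Sprague-Dawley rats of about 200 to 250 g, exposed in whole-body chambers, and a piece of lung from each gave 1 library of total RNA depleted of ribosomal RNA. The labels number the animals through the whole series without giving litters or days of exposure.

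A piece of lung holds more than alveoli and airways. Blood stays in its vessels with young red cells that still carry RNA, megakaryocytes lodge in its capillaries and shed platelets there, and in rodents a sleeve of heart muscle runs along the pulmonary veins into the organ. Alveolar type 2 cells make surfactant, club and goblet cells of the airways secrete mucins and defence proteins, and resident macrophages clear lipid. Transcripts of each of these were followed through gene lists, and levels are given as CPM, which are counts scaled by the library total.

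Library totals ranged from 3.60 to 6.55 M counts, so that a count of 3, the limit that a count of 0 allows, was 0.458 to 0.833 CPM. Intervals and limits of this kind cover counting error only. Between 18410 and 19492 genes had at least 1 count in a library. The lung identity of the libraries was plain: Sftpc, the surfactant protein of type 2 cells, averaged 6483 ± 666 CPM in oil vapor lungs and 6090 ± 545 CPM in air lungs (SD, n = 12 each). Its log2 fold change, oil vapor over air, was 0.06 (standard error, SE, 0.04), which did not pass the test.

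Before any comparison, the libraries had to be set beside each other, because the tables of the 2 schedules were not independent for blood, liver and some ventricular muscle transcripts. When animals were ranked by number within their group, the animal of equal rank on the other schedule carried like raw counts of many of these. Atrial genes were not matched, and Mb, the myoglobin of muscle, had 1649 and 1498 counts in the rank 3 air pair but 5 and 49 in the rank 3 oil vapor pair. Alas2, which makes the first intermediate of heme in red cell precursors, had 2098, 1933, 2975, 448, 557 and 1671 counts in the repeated oil animals, and 1995, 1742, 2717, 460, 402 and 1546 in the single oil animals of the same ranks. In the air animals it had 10458, 3424, 3170, 5054, 4402 and 13463 counts on the repeated schedule and 9492, 3203, 2796, 4577, 4025 and 12412 on the single one. Each high or low animal thus had a partner of like count in the other table. Alb, the serum albumin of the liver, had 3873 counts in the rank 1 repeated air animal and 3592 in its single air partner, against at most 242 in any other of the 24 animals. Sftpc was matched less closely, with a correlation between partners, as defined below, of 0.34 over 12 pairs, against 0.97 for Alas2. Its most unlike pair had 38958 counts in the rank 6 repeated air animal and 19022 in its partner, which were 6872 and 5280 CPM. Its rank 3 oil vapor pair had 34167 and 34192 counts.

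**Figure D1:**
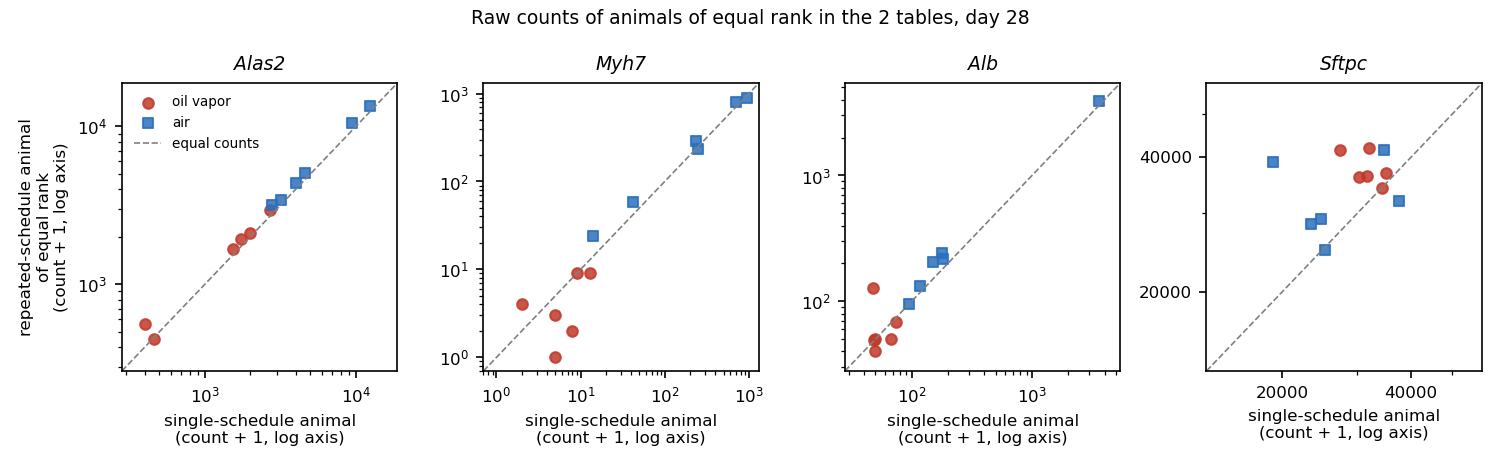
Raw counts plus 1 of 4 transcripts in the 12 pairs of animals of equal rank, with the single-schedule animal on the x axis and the repeated-schedule animal on the y axis, both logarithmic. Circles are oil vapor pairs, squares are air pairs and the dashed line marks equal counts: Alas2 and the higher counts of Myh7 and Alb lie along it, whereas Sftpc scatters around it.

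Across all 14887 genes tested, the correlation between partners, on log2 CPM centred within groups over the 12 pairs, had a median of 0.14, and 205 genes (1.38%) were above 0.8. Medians were 0.91 for the erythroid list, 0.82 for liver, 0.67 for platelets, 0.65 for ventricular muscle and -0.18 for atrial muscle. Lists of other kinds also had raised medians, as high as 0.54 for heat shock and 0.53 for fatty acid synthesis genes. No source used here ties the paired animals to each other, and what makes their counts alike was not tested. The adjusted p-values of the 24 libraries take partners as independent, so for the main results the count with each pair summed, 6 oil vapor against 6 air units, is given as well.

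With the 24 libraries, 323 of 14887 genes (2.17%) differed between oil vapor and air at an adjusted p below 0.05 (quasi-likelihood F test of edgeR, Benjamini-Hochberg adjusted over all genes tested). Of these 309 (2.08%) were lower in oil vapor lungs and 14 (0.094%) higher, and 1530 genes (10.3%) were at an unadjusted p below 0.05. With partners summed, 118 of 15541 genes (0.759%) were called, 114 lower (0.734%) and 4 higher (0.0257%), and 117 of them were among the 323. The lower genes had a median log2 fold change of -0.86, and 137 were below -1. The higher genes had a median of 0.21, and 12 of 14 were under 0.3. Among the genes called lower, 110 (35.6%) had partner correlations above 0.8 and 46 (14.9%) below 0.3, whereas none of the 14 called higher was above 0.8. Of those 110 genes 52 were still called with partners summed, and of the 46 genes 16 were. So the shared signature was mostly of lower transcripts, and it held 40 members of the erythroid, platelet, muscle, liver and brain lists.

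Platelet and megakaryocyte genes included the gene of smallest p. All 11 tested had lower values, 9 passed, and the median log2 fold change was -1.44, against 0.003 over all genes tested. With partners summed 7 of 11 passed. Their summed level was 87.4 to 177 CPM in oil vapor animals and 157 to 527 CPM in air animals, so the 2 ranges overlapped only at their ends. In bulk tissue, fewer cells of a type and less RNA per cell cannot be told apart.

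Clec1b, the platelet receptor for podoplanin, had the smallest p of all genes. It had a lowest, median and highest level of 6.00, 11.5 and 20.2 CPM in repeated oil animals, against 19.8, 53.6 and 71.1 CPM in repeated air animals. Single oil animals had 7.28, 10.1 and 21.1 CPM, against 23.6, 46.2 and 106 CPM in single air animals. The 2 single groups did not overlap, and on the repeated schedule 1 value of each group crossed. Its log2 fold change was -2.15 (SE 0.24, adjusted p = 1.69e-05, edgeR).

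Other genes of platelets fell with it, the first 3 below from the list and Ly6g6f, Rgs18 and Cd226 from outside it. Itga2b, the alpha subunit of the fibrinogen receptor, averaged 20.1 ± 6.76 CPM in oil vapor lungs and 53.2 ± 16.9 CPM in air lungs (SD, n = 12 each), a log2 fold change of -1.44 (SE 0.18). Gp9, a subunit of the von Willebrand factor receptor, averaged 1.42 ± 0.696 CPM in oil vapor lungs, against 5.53 ± 2.63 CPM in air lungs, a change of -1.95 (SE 0.26). Tubb1, the platelet form of beta tubulin, averaged 11.5 ± 4.4 CPM in oil vapor lungs, against 33.8 ± 13.1 CPM in air lungs, a change of -1.59 (SE 0.21). Ly6g6f, a surface protein of platelets, averaged 0.940 ± 0.495 CPM in oil vapor lungs, against 4.38 ± 1.73 CPM in air lungs, a change of -2.21 (SE 0.25). Rgs18, a brake on G-protein signalling in platelets, and Cd226, an adhesion receptor of platelets and lymphocytes, changed by -1.11 (SE 0.14) and -1.29 (SE 0.16) on the log2 scale. Adjusted p-values of these genes ran from 1.69e-05 to 4.23e-05 (edgeR), and all were called with partners summed, at an adjusted p of 0.0141 each.

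Erythroid genes fell as a group too. Of 14 tested all had lower values and 12 passed, at a median of -1.99 on the log2 scale, and 9 of 14 passed with partners summed. Alas2 had a lowest, median and highest level of 81.4, 311 and 626 CPM in repeated oil animals, against 563, 1101 and 2375 CPM in repeated air animals. Its levels in single oil animals were 85.8, 281 and 520 CPM, against 612, 1048 and 3445 CPM in single air animals. The groups overlapped on the repeated schedule and did not on the single one. The log2 fold change was -2.25 (SE 0.36, adjusted p = 0.000285, edgeR), and the adjusted p with partners summed was 0.0369.

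Over the 14 erythroid members the log2 fold changes ran from -2.25, that of Alas2, to -0.08. Rhag, the partner of the Rhesus proteins in the red cell membrane, averaged 1.02 ± 0.542 CPM in oil vapor lungs, against 4.71 ± 2.54 CPM in air lungs (SD, n = 12 each), with no overlap in either schedule, and changed by -2.19 (SE 0.30). Ahsp, the chaperone of alpha globin, changed by -2.24 (SE 0.35) and Rhd, the Rhesus blood group protein, by -2.13 (SE 0.33). Hbb, the beta globin, averaged 863 ± 273 CPM in oil vapor lungs, against 1687 ± 803 CPM in air lungs, a change of -1.01 (SE 0.21, adjusted p = 0.00437, edgeR), but its adjusted p was 0.101 with partners summed. Globin copies are near-identical, so the split of their reads is uncertain. When all 48 libraries of the series shared 1 estimate of spread, 0 of 14 erythroid and 0 of 11 platelet genes passed, at medians of -1.99 and -1.43.

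Erythroid and megakaryocyte genes are known targets of GATA1, a transcription factor of these lineages. Promoters of RefSeq (assembly GRCr8, which differs from the build of the counts) are shown for 5 of the platelet and red cell genes named above, a choice made with their values known, 250 bases before to 50 after the start, 5′ to 3′ on the strand of the gene. Capitals mark the motif of that factor, searched as AGATAA and as AGATAG and as TGATAA and as TGATAG on both strands.
Clec1b, chr4:164533859-164534158, plus strand: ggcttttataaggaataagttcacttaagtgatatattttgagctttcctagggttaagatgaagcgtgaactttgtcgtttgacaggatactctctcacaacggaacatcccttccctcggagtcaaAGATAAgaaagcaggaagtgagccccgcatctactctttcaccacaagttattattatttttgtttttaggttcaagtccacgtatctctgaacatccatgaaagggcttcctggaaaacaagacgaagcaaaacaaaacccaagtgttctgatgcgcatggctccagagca
Itga2b, chr10:87925784-87926083, minus strand: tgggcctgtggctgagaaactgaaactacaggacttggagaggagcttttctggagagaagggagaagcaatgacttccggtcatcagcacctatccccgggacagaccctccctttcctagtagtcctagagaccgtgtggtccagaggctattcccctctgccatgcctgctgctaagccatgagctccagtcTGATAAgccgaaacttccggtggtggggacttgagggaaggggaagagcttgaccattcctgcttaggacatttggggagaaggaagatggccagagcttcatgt
Gp9, chr4:121792592-121792891, plus strand: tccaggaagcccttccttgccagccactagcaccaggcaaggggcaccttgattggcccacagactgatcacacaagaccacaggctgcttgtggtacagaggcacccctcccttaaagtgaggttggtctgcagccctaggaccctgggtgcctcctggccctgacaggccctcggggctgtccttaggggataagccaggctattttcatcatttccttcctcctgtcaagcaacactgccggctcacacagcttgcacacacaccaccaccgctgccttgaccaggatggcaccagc
Rhag, chr9:27594341-27594640, minus strand: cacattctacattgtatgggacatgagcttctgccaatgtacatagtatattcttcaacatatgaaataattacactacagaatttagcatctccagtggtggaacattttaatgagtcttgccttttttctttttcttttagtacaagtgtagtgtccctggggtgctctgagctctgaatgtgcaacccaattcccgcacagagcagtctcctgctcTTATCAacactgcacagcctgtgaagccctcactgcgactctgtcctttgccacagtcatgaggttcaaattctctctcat
Alas2, chrX:22895200-22895499, plus strand: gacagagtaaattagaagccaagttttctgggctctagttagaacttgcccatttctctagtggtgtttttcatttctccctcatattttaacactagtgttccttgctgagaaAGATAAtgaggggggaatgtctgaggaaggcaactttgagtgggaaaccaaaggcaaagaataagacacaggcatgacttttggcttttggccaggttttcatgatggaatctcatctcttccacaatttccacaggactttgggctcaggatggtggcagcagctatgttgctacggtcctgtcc
One match each stood in Clec1b, Itga2b, Rhag and Alas2, beginning 122, 55, 31 and 136 bases before the start, and none in Gp9. Of the genes with a promoter in the table, 6 of 9 erythroid and 3 of 7 platelet members held a match, as did 1924 of 10072 genes tested (19.1%) and 10155 of all 33469 promoters (30.3%). Of the ventricular and slow muscle list 4 of 12 (33.3%) held a match too. A match is a description of letters and not a site.

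Rsad2, the antiviral protein viperin induced by interferon, fell together with these genes. It had a lowest, median and highest level of 40.9, 94.2 and 175 CPM in repeated oil animals, against 253, 434 and 679 CPM in repeated air animals. After the single schedule the oil vapor animals had 29.3, 87.8 and 152 CPM, against 222, 402 and 920 CPM in single air animals. No oil vapor animal reached the lowest air animal in either schedule. The log2 fold change was -2.36 (SE 0.28, adjusted p = 2.15e-05, edgeR), with an adjusted p of 0.0141 with partners summed. Its counts tracked rank like those of Alas2, with a partner correlation of 0.95 over 12 pairs. Of 28 interferon response genes tested, Rsad2 included, 17 had lower values, 2 were called (7.14%, against 2.17% of all genes), and the median was -0.04. The other called gene was Irf7, the factor that drives interferon production, at 62.1 ± 12.3 CPM in oil vapor lungs, against 95.6 ± 26 CPM in air lungs (SD, n = 12 each), a change of -0.65 (SE 0.13) whose adjusted p was 0.0903 with partners summed. Ifit3, a typical interferon target, changed by -0.38 (SE 0.13) and did not pass.

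A few genes outside the lists separated the groups as cleanly. Across all genes, 15 of 14887 (0.101%) had oil vapor animals all below the air animals in both schedules, and 0 had them all above. Ncoa4, the receptor that delivers ferritin for breakdown by autophagy, had a lowest, median and highest level of 244, 351 and 471 CPM in repeated oil animals, against 548, 799 and 1281 CPM in repeated air animals. Single oil animals had 237, 337 and 413 CPM, against 518, 757 and 1734 CPM in single air animals. The gap between the groups held in both schedules, and the log2 fold change was -1.41 (SE 0.18, adjusted p = 3.84e-05, edgeR). Tax1bp1, another autophagy receptor, averaged 385 ± 26.9 CPM in oil vapor lungs, against 536 ± 76.1 CPM in air lungs, a change of -0.51 (SE 0.07). Ypel5, a subunit of the CTLH ubiquitin ligase, changed by -1.02 (SE 0.14). Kcnab1, an accessory subunit of voltage-gated potassium channels that did overlap, averaged 6.67 ± 2.80 CPM in oil vapor lungs, against 19.3 ± 6.03 CPM in air lungs and changed by -1.56 (SE 0.20). The partner correlation was 0.92 for Ncoa4, 0.91 for Ypel5, 0.89 for Kcnab1 and 0.74 for Tax1bp1, so these genes shared the pairing of blood transcripts, and its part in their change was not tested.

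**Figure D2:**
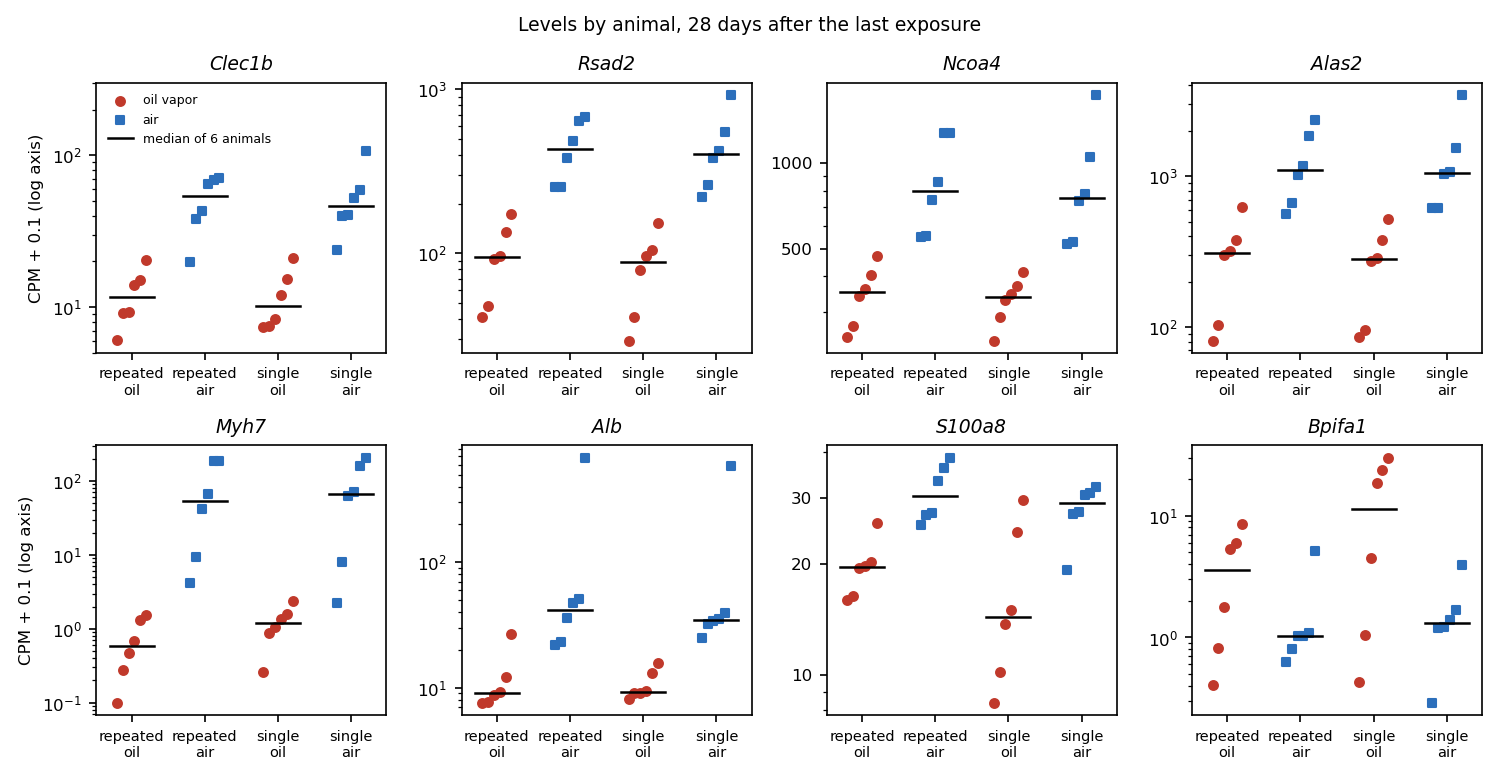
Levels of 8 genes in each animal at 28 days (CPM plus 0.1, logarithmic axis), with the repeated schedule on the left and the single schedule on the right of each panel, oil vapor as circles, air as squares, and lines at the median of 6 animals. Rsad2 and Ncoa4 show no overlap in either schedule, Alb rests in part on 1 air animal per schedule, and Bpifa1 is higher in some oil vapor animals only.

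Ventricular muscle transcripts included the called genes of lowest fold change. Of 15 ventricular and slow muscle genes tested all had lower values and 12 passed, with a median log2 fold change of -2.35. Their summed level was 26.5 to 514 CPM in oil vapor animals and 106 to 1903 CPM in air animals. Myh7, the slow myosin heavy chain, had a lowest, median and highest level of 0, 0.479 and 1.45 CPM in repeated oil animals, against 4.06, 53.7 and 189 CPM in repeated air animals. Its levels in single oil animals were 0.164, 1.10 and 2.28 CPM, against 2.12, 66.0 and 207 CPM in single air animals. The air animals spread widely, the oil vapor animals lay near the limit of counting, and the 2 single groups met at their ends. The log2 fold change was -6.53 (SE 0.81, adjusted p = 2.47e-05, edgeR), with an adjusted p of 0.0141 with partners summed.

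The ventricular light chains Myl3 and Myl2 changed by -7.73 (SE 1.04) and -6.29 (SE 0.83). Myl3 had 0 to 4 counts in every oil vapor animal and 6 to 801 in the air animals. Mb, the oxygen-storing myoglobin, averaged 3.32 ± 3.11 CPM in oil vapor lungs, against 108 ± 119 CPM in air lungs (SD, n = 12 each), a change of -5.06 (SE 0.72). Of 18 genes of fatty acid oxidation and PPAR targets, with a median of -0.09, 2 were called (11.1%, against 2.17% of all genes), and these were genes of muscle. Fabp3, the heart-type fatty acid binding protein, changed by -2.84 (SE 0.55). Cpt1b, the muscle enzyme that carries fatty acids into mitochondria, changed by -0.85 (SE 0.22). Neither passed with partners summed (adjusted p = 0.0579 and 0.207, edgeR).

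The atrial list had no called member, and its difference from the ventricular list was not tested. Its summed level was 89.7 to 580 CPM, with a median of 194 CPM, in oil vapor animals and 108 to 710 CPM, with a median of 290 CPM, in air animals. Of 5 genes tested 0 passed, 3 had higher values, and the median was 0.12, a direction that was -0.36 without the filter on low counts and -0.19 to -0.39 with limma-voom. Myl7, the atrial light chain, averaged 22.1 ± 24.2 CPM in oil vapor lungs, against 12.8 ± 7.51 CPM in air lungs, with a log2 fold change of 0.63 (SE 0.54). Myl4, the other atrial light chain, had a value of 0.72 (SE 0.48). Myh6, the alpha myosin of atria and rodent ventricles and a member of both lists, had a value of -1.32 (SE 0.57) and Ryr2, the calcium release channel of heart muscle, one of -1.65 (SE 0.47), and neither passed. The ventricular calls depended on the test: 3 of 14 genes passed with partners summed and 0 of 15 with limma-voom, where the median was -2.11.

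Liver transcripts were lower in oil vapor lungs, and part of their size came from 1 pair of air animals. Of 9 tested all had lower values and 6 passed, at a median of -2.91 on the log2 scale, and none of 10 passed with partners summed. The summed level was 210 to 275 CPM in oil vapor animals and 241 to 1578 CPM in air animals. Alb had a lowest, median and highest level of 7.49, 8.92 and 26.5 CPM in repeated oil animals, against 21.9, 41.4 and 683 CPM in repeated air animals. After the single schedule the oil vapor animals had 8.05, 9.16 and 15.6 CPM, against 24.9, 34.4 and 586 CPM in single air animals. The oil vapor animals lay below the air animals even without the 2 highest ones, apart from 1 repeated oil animal. The log2 fold change was -3.64 (SE 0.66, adjusted p = 0.00106, edgeR), and -1.66 (adjusted p = 1.71e-05) without the rank 1 air pair, animals 17 and 82. Over all fits that left out 1 animal or 1 pair, the median of the list ran from -3.13 to -0.65. Ttr, the thyroid hormone carrier transthyretin, averaged 0.427 ± 0.357 CPM in oil vapor lungs, below the limit of counting, against 7.11 ± 11.4 CPM in air lungs, and changed by -4.11 (SE 0.74) and by -2.42 without that pair. Fgb, the beta chain of fibrinogen, changed by -3.57 (SE 0.71), Pzp, a protease inhibitor of plasma, by -3.32 (SE 0.67) and Apob, the protein of low-density lipoprotein, by -3.22 (SE 0.67). With partners summed the adjusted p was 0.0614 for Alb, 0.0546 for Ttr and 0.0852 for Fgb.

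**Figure D3:**
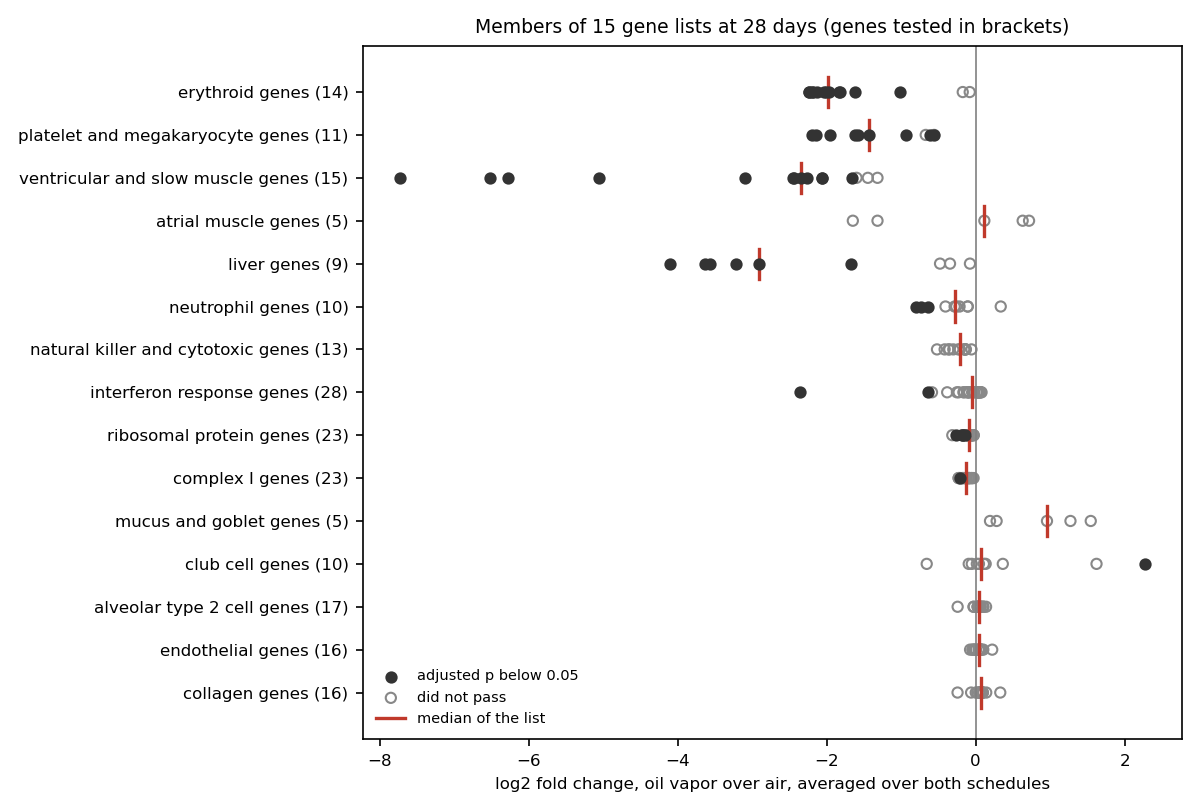
Log2 fold changes, oil vapor over air averaged over both schedules, of the members tested in 15 gene lists, with filled circles for members at an adjusted p below 0.05, open circles for the others and a red bar at the median of each list. The erythroid, platelet, ventricular and liver members lie far below 0, while alveolar type 2, endothelial and collagen members lie close to 0.

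Among the lists of white cells, the neutrophil list alone had called members. Of 10 tested 9 had lower values and 3 passed (30%, against 2.17% of all genes), with a median of -0.27. S100a8, a subunit of the neutrophil protein calprotectin, had a lowest, median and highest level of 15.8, 19.4 and 25.7 CPM in repeated oil animals, against 25.4, 30.4 and 38.6 CPM in repeated air animals. Single oil animals had 8.29, 14.2 and 29.7 CPM, against 19.1, 29 and 32.2 CPM in single air animals. The groups overlapped in both schedules, and the log2 fold change was -0.73 (SE 0.14, adjusted p = 0.00248, edgeR). Mmp8, the neutrophil collagenase, changed by -0.81 (SE 0.17) and S100a9, the partner of S100a8, by -0.64 (SE 0.17). Unlike the blood genes above, these tracked rank weakly, with partner correlations of 0.32, -0.03 and -0.01 over 12 pairs, and S100a8 and Mmp8 kept their call with partners summed (adjusted p = 0.0309 and 0.0300) while S100a9 did not (0.0637). Fcnb, a lectin of neutrophil granules, had a value of -0.41 (SE 0.14) and did not pass. All 13 natural killer and cytotoxic genes had lower values, with a median of -0.21, and 0 passed (after the repeated schedule alone, 1 did). Klrd1, a receptor subunit of natural killer cells, had a value of -0.52 (SE 0.15, adjusted p = 0.0728) and Nkg7, a granule protein, one of -0.30 (SE 0.10).

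Some genes of ribosomes, respiration, cell division, oxidative stress and glycolysis were called, with log2 fold changes of -1.51 to -0.16 among those named. The shares called were 17.4% of ribosomal protein, 4.76% of cell division, 10.5% of oxidative stress and 7.14% of hypoxia genes, against 2.17% of all genes. Apart from the ribosomal list these are 1 or 2 genes each, and they describe those genes only. All 23 ribosomal protein genes tested had lower values and 4 passed, with a median of -0.10, and none of 24 passed with partners summed. Rplp0, a protein of the ribosomal stalk, averaged 450 ± 35.1 CPM in oil vapor lungs, against 529 ± 51.7 CPM in air lungs (SD, n = 12 each), a change of -0.26 (SE 0.05), and Rpl4 changed by -0.17 (SE 0.03). All 23 nuclear genes of respiratory complex I had lower values, with a median of -0.13, and 1 passed (4.35%, where 2.17% of all genes did), Ndufv2, a subunit of its electron input module, with -0.22 (SE 0.04). Ube2c, which marks mitotic proteins for destruction, changed by -1.51 (SE 0.30) and was the 1 of 21 cell division genes called, while Top2a, the topoisomerase of dividing cells, had a value of -0.35 (SE 0.10) and did not pass. Gclm, the regulatory subunit of glutathione synthesis, and Fth1, the ferritin heavy chain, changed by -0.68 (SE 0.13) and -0.43 (SE 0.10), the 2 called of 19 targets of the oxidative stress factor NRF2. Their partner correlations were 0.85 and 0.83 over 12 pairs. The glycolytic enzyme Pgk1 changed by -0.16 (SE 0.04), the 1 called of 14 hypoxia genes. Of all the genes in this paragraph, none was called with partners summed.

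The 14 genes called higher had small changes, apart from a pair with few counts. Pwwp2b, a chromatin protein, averaged 58.4 ± 5.17 CPM in oil vapor lungs, against 47.7 ± 5.16 CPM in air lungs (SD, n = 12 each), a log2 fold change of 0.26 (SE 0.06, adjusted p = 0.00612, edgeR). Ppme1, the enzyme that demethylates protein phosphatase 2A, averaged 30.9 ± 1.64 CPM in oil vapor lungs, against 26.3 ± 1.82 CPM in air lungs, a change of 0.21 (SE 0.05). Als2cl, Pacs2, Thap4, Sned1, Maf, a transcription factor, and Yeats2 rose by 0.13 to 0.26. Por, the reductase that feeds electrons to the cytochromes P450, rose by 0.17 (SE 0.04). It was the 1 called of 25 phase 1 enzymes of foreign compound metabolism (4%, against 2.17% of all genes), whose median was 0.002. Atp2c2, a calcium pump of the Golgi in secretory cells, rose by 0.26 (SE 0.07). Of 36 fits that left out 1 animal or 1 pair, Por was called in 22, Sned1 in 16, Maf in 14, Atp2c2 in 12 and Yeats2 in 8. Pwwp2b and Ppme1 were called in all 36, Als2cl and Pacs2 in 35 and Thap4 in 32. With partners summed, Pacs2 (adjusted p = 0.0309), Thap4 (0.0436) and Bpifa1 (0.0300) were still called. Glycam1 and Nupl1 were also called and were named after their values were seen, with log2 fold changes of 2.20 (SE 0.60) and 0.18 (SE 0.05).

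Bpifa1, a secreted defence protein of the conducting airways, was the called gene with the largest rise. It had a lowest, median and highest level of 0.306, 3.48 and 8.37 CPM in repeated oil animals, against 0.529, 0.932 and 5.01 CPM in repeated air animals. Its levels in single oil animals were 0.329, 11.3 and 29.9 CPM, against 0.191, 1.21 and 3.82 CPM in single air animals. Some oil vapor animals were thus high and others at the air level. The log2 fold change was 2.27 (SE 0.61, adjusted p = 0.0417, edgeR), and it was called in 13 of 36 fits that left out 1 animal or 1 pair, with a highest adjusted p of 0.126. Mucus and goblet genes pointed the same way without passing: all 5 tested had higher values, with a median of 0.96. Muc5b, the main mucin of airway glands, had a lowest, median and highest level of 15.1, 26.7 and 83.8 CPM in repeated oil animals, against 12.6, 14.4 and 18.0 CPM in repeated air animals, and its value over both schedules was 1.27 (SE 0.38, adjusted p = 0.0826). Clca1, a protein of goblet cell mucus, had a value of 1.55 (SE 0.56) and Scgb3a1, an airway secretoglobin, one of 1.62 (SE 0.59). Levels of these genes were uneven between animals, with partner correlations of -0.59 for Bpifa1 and -0.06 for Muc5b over 12 pairs. Each animal gave 1 piece of lung, so differences between animals and between pieces cannot be told apart.

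Genes of the resident cells of the lung had values near 0. None of 17 alveolar type 2, 14 type 1, 16 endothelial, 10 fibroblast and 16 collagen genes passed, with list medians between 0.01 and 0.08. Higher values were seen for 14, 9, 11, 7 and 14 of them, in that order, and for 7690 of all 14887 genes. No gene of the lists for ciliated cells, alveolar macrophages, lipid-laden macrophages, T cells, B cells, cholesterol synthesis, cytokine response, heat shock or glucocorticoid response passed either. Of these, 14 of 17 T cell and 19 of 21 cholesterol synthesis genes had lower values, and 13 of 14 glucocorticoid genes had higher ones. In all, 37 of 52 lists had no called member, and apart from the mucus and atrial lists their medians lay between -0.21 and 0.10.

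How much of the shared effect each schedule carried was asked next. After the repeated schedule 71 genes (0.477%) were called, 70 lower (0.47%) and 1 higher (0.00672%), and after the single schedule 119 (0.799%), 112 lower (0.752%) and 7 higher (0.047%). Each schedule alone holds 1 animal of each pair, but these counts used the spread of all 24 libraries, with partners taken as independent. With only its own 12 libraries, the repeated schedule called 137 of 14455 genes and the single schedule 16 of 14401, the reverse order. The 46 genes called in both were 64.8% of the repeated and 38.7% of the single calls, and all 46 had the same direction. The difference between the oil vapor effects, repeated minus single, passed for 0 of 14887 genes (0%), with a smallest adjusted p of 0.587, and 999 genes (6.71%) were at an unadjusted p below 0.05. DESeq2 and limma-voom called 0 as well. Taken within pairs of equal rank, the difference again passed for 0 genes, with 1366 at an unadjusted p below 0.05. All 323 genes of the average had the same sign in both schedules, which choosing them by the average makes likely. Both schedules hold the paired animals described above. For many blood, ventricular and liver genes, and for some genes of other lists, the schedules are therefore not independent of each other. Of 14564 genes not called for the average, 95 (0.652%) also had partner correlations above 0.8.

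**Figure D4:**
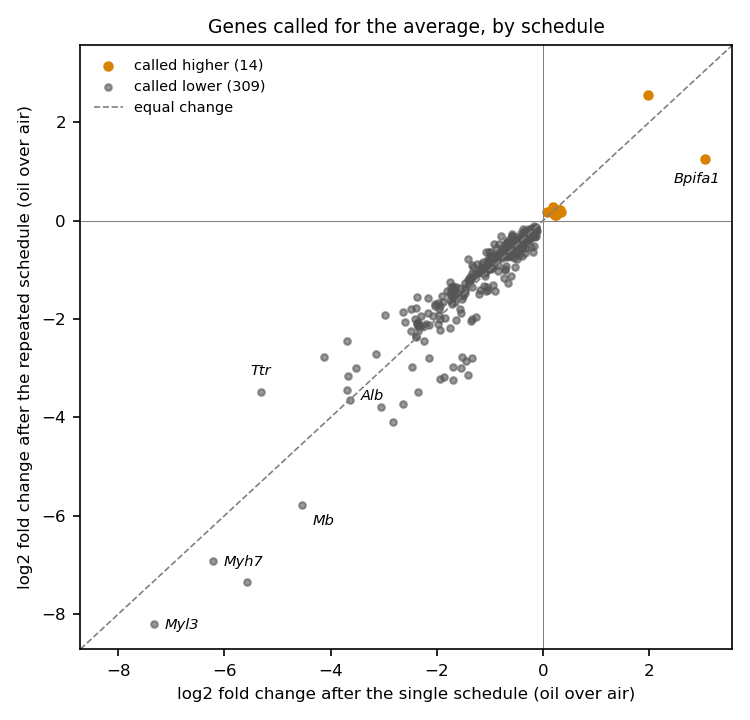
Log2 fold changes, oil vapor over air, of the 323 genes called for the average, after the single schedule (x axis) and the repeated schedule (y axis), with a dashed line of equal change. Orange points are the 14 genes called higher and grey points the 309 called lower, with Myl3, Myh7 and Mb among those farthest below 0 on both axes.

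The genes nearest to a schedule difference belonged to none of the groups above, and none passed. Kcna3, a potassium channel of lymphocytes, had a log2 fold change of 0.33 after the repeated and -0.52 after the single schedule, a difference of 0.85 with an adjusted p of 0.587. Fbxo21, Tspan18 and Atxn7l2 had differences of 0.56, 0.46 and 0.76, and Ctdspl one of -0.30. Immediate early genes, the fast-induced transcription factors, had medians of opposite sign, 0.26 after the repeated and -0.26 after the single schedule, with lower values for 2 and for 21 of 22 genes. The single value rested on air animal 17, whose summed level of these genes was 3622 CPM, with the nearest single air animal at 2146 CPM. Without it the single median was -0.01, with lower values for 12 of 22 genes. The median of the average over both schedules was -0.04, and none of the 22 passed.

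The last comparison set the shared effect at 28 days against that at 1 day, in other animals. In a fit of all 48 libraries the effect at 28 days minus that at 1 day passed for 77 of 15322 genes (0.503%), 73 lower (0.476%) and 4 higher (0.0261%). The average at 1 day alone called 2 genes (0.0131%), both higher, and 1509 (9.85%) were at an unadjusted p below 0.05. With partners summed at both times, 0 of 16053 genes passed, and 1431 were at an unadjusted p below 0.05, so the calls below were not kept in that fit. The genes that led were of the liver. Alb had a log2 fold change of 3.07 at 1 day, and the difference to 28 days was -6.69 (SE 0.91, adjusted p = 5.36e-05, edgeR), with an adjusted p of 0.0711 with partners summed. For Ttr, Pzp and Apob the difference was -7.35, -6.31 and -6.21. Erythroid, platelet and liver lists had medians of 1.14, 0.79 and 2.50 at 1 day, the opposite direction from 28 days, and 3, 1 and 6 of their members tested at 28 days passed for the difference. At 1 day itself Alas2, Clec1b and Alb did not pass (adjusted p = 0.463, 0.462 and 0.0588, edgeR). Ventricular genes had a median of -0.36 at 1 day, and 4 passed for the difference, Myh7 among them with -6.21 (SE 1.24, adjusted p = 0.00331). S100a8 had 0.72 at 1 day, and its difference of -1.45 did not pass (adjusted p = 0.14). The oil vapor animals at 1 day spread widely, with Alas2 at 71.7 to 19529 CPM against 341 to 2360 CPM in air animals at 1 day, and Alb at 12.0 to 710 CPM against 6.64 to 43.6 CPM. The part of that spread in the difference between the times was not tested.

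**Figure D5:**
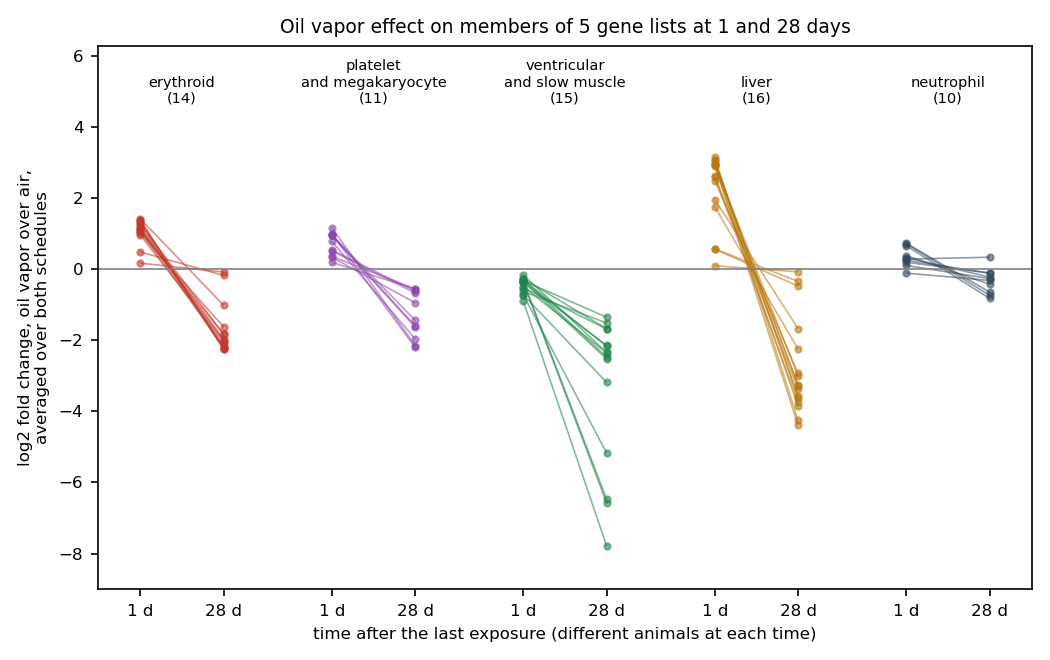
Log2 fold changes, oil vapor over air averaged over both schedules, of the members of 5 gene lists at 1 and 28 days, joined by lines, with the number of members in brackets. Erythroid, platelet and liver members lie above 0 at 1 day and below 0 at 28 days, and ventricular members lie below 0 at both times and lower at 28 days.

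Since transcripts of other tissues moved with so many results, the average was also fitted with scores of erythroid, heart muscle and liver transcripts as covariates. Then 8 genes were called, 6 lower and 2 higher, of which 5 were among the 323. These 5 were Rsad2, at a log2 fold change of -0.76 (adjusted p = 0.0106), and the ventricular genes Myh7, Myl2, Myl3 and Mb, at -3.97, -3.79, -5.17 and -2.31. The heart muscle score pooled the ventricular and atrial lists, so these ventricular genes were members of their own covariate. In the same fit Myh6 and Ryr2 of the atrial list turned to 1.67 and 0.98. What the remaining ventricular calls owe to that pooling was not tested. Clec1b had a value of -1.03 with an adjusted p of 0.103, and S100a8 one of -0.15. The scores differ between oil vapor and air animals themselves, so they take up any oil vapor effect that moves with them, and the part of these tissues in the other changes was not tested.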

How the data were processed

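Lung RNA of 48 rats was sequenced, and the 24 libraries of 28 days were compared. The authors deposited raw counts per gene symbol in a table for each schedule, joined here by symbol (30045 genes). Per the submitters' processing notes the build was Rnor_6.0 and the tools named are HISAT2 2.1.0, HTSeq 0.6.1, Trimmomatic 0.35, SAMtools 1.8 and bcl2fastq 2.19. Which annotation and strand setting were used is not given in the sources used here. Overlapping and antisense genes are therefore uncertain. One animal's description names the other table, and its title and column were followed.

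Genes that passed edgeR's filterByExpr were fitted with edgeR 4.0.16 (R 4.3.3): TMM scaling, quasi-likelihood F test, Benjamini-Hochberg adjustment, threshold 0.05, schedule as a block. The difference between schedules, each schedule alone, and 28 days minus 1 day (all 48 libraries) were fitted likewise. Standard errors are approximate, the log2 fold change over the root of F. The scripts were tested on simulated data. Alternatives used DESeq2 1.42.0, limma 3.58.1 and sva 3.50.0, other scaling and filters, covariates, summed animals of equal rank and libraries left out. Gene lists were matched by exact symbol. Members and lists were chosen with earlier results of these data known. Named genes were the 12 of smallest p in each direction with a mean of at least 1 CPM, up to 6 with no overlap in either schedule, up to 5 for each difference, up to 4 per list, and tissue markers. The p-values measure the spread between libraries and take animals of equal rank as independent, which their counts do not bear out for many blood and liver genes and some others. A few genes that this rule names are not reported here.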

Additional observations from a re-analysis of the deposited data

Results flagged for a closer look

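Of 64 groups of 6 animals examined, 9 held an animal far from the others, with a gap to the nearest above 0.625 of the group's range. That cut is passed by about 1 in 20 groups only if values are normally spread and groups are independent. Here CPM were used as they are, Alb and Alas2 belong to the summed lists, and partners carry like counts. The 9 groups are therefore a description and were not tested against chance. Alb stood at 683 CPM in repeated air animal 82, with the nearest at 50.6 CPM, and at 586 CPM in single air animal 17, with the nearest at 39.4 CPM. The summed liver list stood at 1578 CPM in animal 82 and at 1337 CPM in animal 17, with the nearest at 339 and 304 CPM. Animals 82 and 17 are partners of rank 1. Alb was also high in repeated oil animal 92, at 26.5 CPM with the nearest at 12.1 CPM. In single air animal 23, Alas2 stood at 3445 CPM with the nearest at 1548 CPM, and the summed erythroid list at 9223 CPM with the nearest at 4547 CPM. The summed immediate early list, added after its values were seen, stood at 3622 CPM in single air animal 17, with the nearest at 2146 CPM. Bpifa1 stood at 5.01 CPM in repeated air animal 84, with the nearest at 0.986 CPM.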

How the results depend on the processing

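The average called 323 genes, and 75 with all 48 libraries in 1 fit, 8 with scores of other tissues as covariates, 82 with a minimum of 1.5-fold and 118 with partners summed. Leaving out 1 animal gave 297 to 377 and 1 pair 276 to 387. After the repeated schedule 71 genes were called, and 0 with all 48 libraries, 4 with tissue scores, 174 with DESeq2, 137 with only the 12 libraries of that schedule, and 16 to 130 with 1 animal left out. Beyond 1.5 times were air animals 82, 83, 86 and 88 (21, 130, 29 and 22) and oil vapor animals 89, 91, 93, 94 and 96 (32, 23, 20, 16 and 20). After the single schedule 119 were called, and 0 with all 48 libraries, 11 with tissue scores, 40 with 1 surrogate variable, 189 with DESeq2, 28 with limma-voom, 16 with only its 12 libraries, and 30 to 163 with 1 animal left out. Beyond 1.5 times were oil vapor animals 24, 29, 31 and 32 (79, 30, 45 and 52) and air animals 17 and 23 (65 and 49). For 28 days minus 1 day 77 were called, and 172 with no filter, 0 with tissue scores, 198 with DESeq2, 26 with limma-voom and 0 with partners summed at both times. The schedule difference stayed at 0 in each alternative run, also within pairs. With tissue scores the log2 fold change turned to 0.20 for Hbb, -0.092 for Sftpc, 0.98 for Ryr2, 1.67 for Myh6, 0.11 for Irf7, 0.087 for Ifit3, 0.14 for Gclm and 0.082 for Cpt1b. Myl7 turned to -0.19 with limma-voom weights, -0.39 with partners as a random block and -0.39 with libraries as independent, a setting chosen after seeing the data, as were the pairs within the schedule difference and summed at both times. No named gene turned with animals left out. The cause was not tested. No analysis paired by the labels was possible because the groups share no replicate numbers in them. Partners by rank, which no label ties, gave 233 calls for the average as a random block in limma-voom, against 261 with libraries as independent. That block used 1 correlation of 0.11 for all genes, below the median partner correlations of the erythroid, platelet, ventricular and liver lists. A count of 3 was up to 0.833 CPM, which limits Myl2, Myl3, Myh7, Ttr, Fgb, Ly6g6f and Rhag in oil vapor animals.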
